A study of Mus musculus with 10 samples.

Results

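The genes described here code for proteins that the liver secretes into the blood: apolipoproteins, serpins, coagulation and complement proteins, transferrin and the major urinary proteins. They were chosen by symbol, from the probes whose identifier holds a mouse gene number, and each gene was read from its brightest probe. The rule found 48 genes among 7409 with a named probe, read by 53 of 24048 probes. Besides secreted proteins and Serpina3g, a clade A serpin that acts inside cells, it took up 14 genes whose products are not secreted plasma proteins: 11 clade B serpins, most of which act inside cells, and Apobec3, F8a and F11r. Albumin, transthyretin and the fibrinogen chains were in the rule, but no probe was named for them, so they are not analysed here.

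The samples were livers of 5 Gyk heterozygous and 5 Gyk wildtype female mice, each measured on an Illumina bead array. Gyk codes for glycerol kinase on the X chromosome, and a female heterozygous for it keeps an intact copy that random X inactivation silences in part of the cells. The labels give C57Bl/6J as the strain of the controls and do not describe the altered allele. All 10 mice were 23 weeks old and had eaten chow with 4% fat until 11 weeks of age and with 6% fat from then on. Numbers of replicates below follow the order of the labels and carry no other meaning. The labels do not say how the RNA samples relate to extractions, so p-values measure the spread between these 10 samples.

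Hepatocytes make most plasma proteins and release them through the secretory pathway, and many of their genes lie in clusters of near-identical copies that arose by duplication. Apolipoproteins package and steer lipid in the blood. Serpins are protease inhibitors that trap their target by a large change of shape. Coagulation and complement are cascades of proteases held in check by such inhibitors. Major urinary proteins carry small volatile molecules in mouse urine and respond strongly to sex and growth hormone.

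Array medians ran from 14 to 24, and between 9991 and 10859 probes were detected on each. The Gyk probe had a log2 change of -0.65 (SE 0.19, limma adjusted p 0.332), with all heterozygous values below all wildtype values. The margin was narrow, with a highest heterozygous log2 value of 9.040 and a lowest wildtype value of 9.049. The arrays that stood apart from the other 8 were those of Gyk heterozygous replicate 1 and wildtype replicate 1, at -36.5 and -39.3 on the first principal component, where the others lay between -7.32 and 22.1. All 3 hepatocyte markers with a probe were detected, and the single probes for Krt19 of bile ducts and Prss1 of pancreas were detected on 0 arrays. The number of arrays limits the precision. In bulk liver, fewer cells of a type and less RNA per cell cannot be told apart.

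Of the 48 genes, 32 (66.7%) were detected on at least 5 of 10 arrays, against 50.3% of all named genes, and each of the 32 was detected on all 10. The other 16 were at background. Among them F13a1 and Serpinb1c were detected on 1 array each, and Apobec3, Mup5, Serpina3a, Serpina9 and 9 further clade B serpins were detected on 0 arrays. Only Serpinb6a of the 11 clade B serpins was measured. All 7 apolipoproteins, 4 of 5 coagulation genes, 3 of 4 complement genes, 10 of 12 other serpins of clades A and F, and 5 of 6 carrier protein genes were measured.

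None of the 32 genes passed limma's test, with 0 called at an adjusted p under 0.05, where 0% of the 10225 tested probes were called. At an unadjusted p under 0.05 there were 2 genes, F8a and Mup4, both higher in heterozygous liver. That is 6.25% of the 32, below the 11.9% of all tested probes, of which 7.26% were higher and 4.68% lower. A log2 change above 0.5 in size was found for 5 of the 32 genes (Mup2, Serpina1e, Serpina12, Mup4 and Trf), where 2.15% of all tested probes had one, and these 5 were among the 9 genes with the widest spread between mice (percentile above 90). The groups did not overlap for 1 gene, F8a, where 1.77% of all tested probes had groups that did not overlap. After quantile normalization 23 of the 32 genes (71.9%) had values above 0 and 9 below, against 46.5% above 0 among all probes. With median scaling 46.9% of the genes were above 0, against 47.5% of all probes. Without normalization 40.6% were, against 41.4% of all probes. Cyclic loess gave 71.9%, against 48.7% of all probes. The direction of the set thus depended on the scaling. The median log2 change was 0.08 for the 32 genes and -0.01 for all tested probes.

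**Figure D1:**
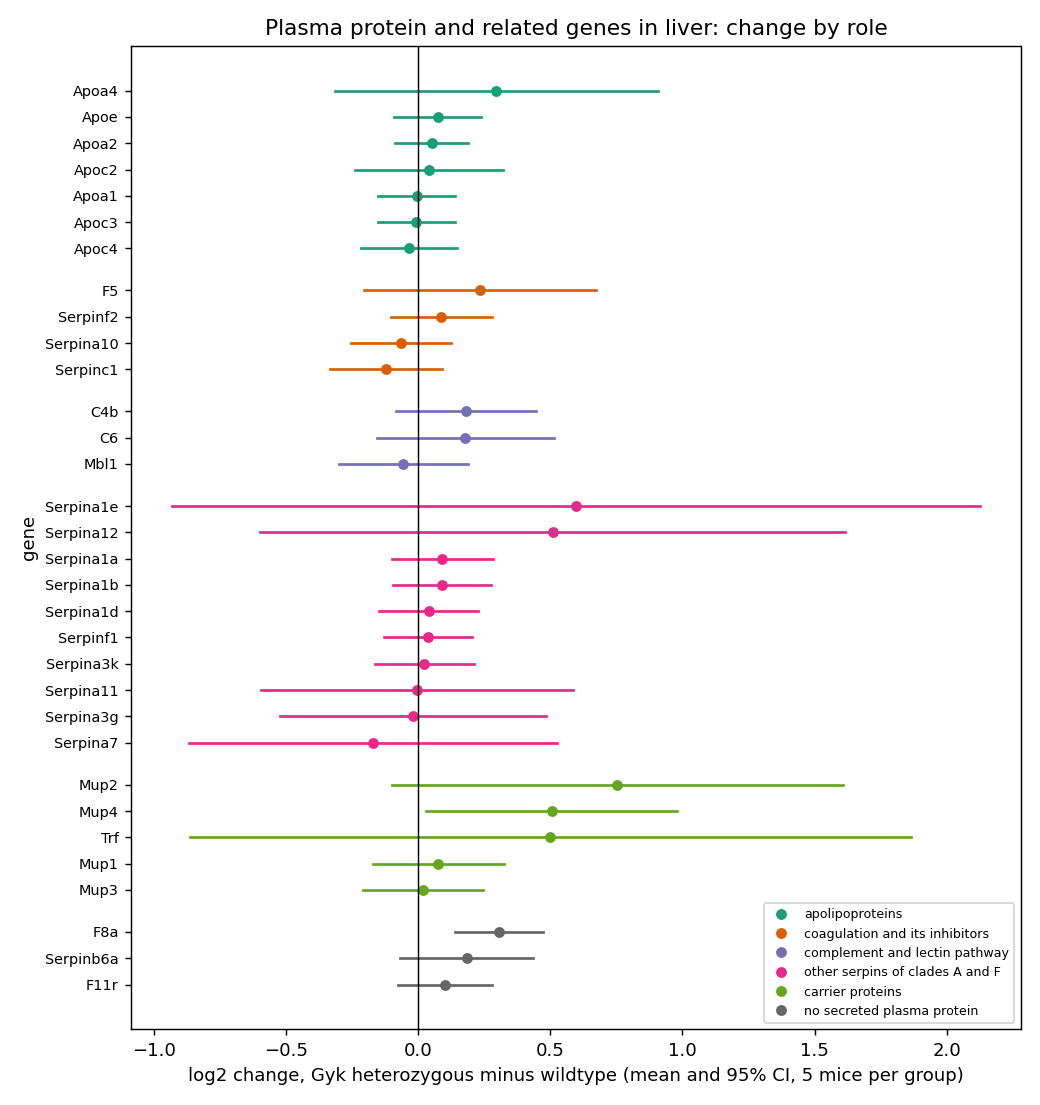
Log2 change (x axis, Gyk heterozygous minus wildtype, points) with its 95% confidence interval (lines) for the 32 detected genes, ordered by role. Intervals of F8a (0.14 to 0.47) and Mup4 (0.03 to 0.98) lie above 0, and those of Serpina1e, Trf and Serpina12 are the widest.

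Apolipoproteins showed no change that passed. Apoa1, the main protein of high-density lipoprotein, had a deposited intensity (linear bead brightness with background subtracted) of 44683 ± 4949 (SD, n = 5) in the heterozygous group, against 51226 ± 2662 (SD, n = 5) in the wildtype group. Apoc3, which restrains lipoprotein lipase, had 37819 ± 2785 (SD, n = 5) and 43574 ± 3257 (SD, n = 5). In heterozygous replicates 1 to 5 Apoa1 had 41498, 38189, 45576, 47310 and 50844, and in wildtype replicates 1 to 5 it had 50447, 48950, 49365, 51810 and 55556. Only heterozygous replicate 5 reached the wildtype range. The deposited means of both genes were thus lower in heterozygous liver, while after quantile normalization the log2 change was -0.01 for each.

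These probes ranked 7 and 10 by brightness among all probes, and after quantile normalization their values spanned 0.20 and 0.19 on the log2 scale over the 10 arrays. Without normalization the log2 change was -0.20 for Apoa1 and for Apoc3, with unadjusted limma p-values of 0.0440 and 0.0310 and adjusted values of 0.381 and 0.359. The 150 brightest probes of the array moved with them: their median log2 change was -0.16 without normalization, -0.13 with median scaling and -0.00 after quantile normalization. The apolipoproteins' median was -0.15, -0.12 and 0.04 under the same settings. Whether the lower intensity is a property of the arrays' scale or of the livers was not tested.

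Apoe, the ligand by which remnant particles are taken up, had a log2 change of 0.07 (95% CI -0.09 to 0.24), but -0.08 with median scaling and -0.10 without normalization. Apoa2, the second protein of high-density lipoprotein, had 0.05, but -0.12 and -0.15 under these settings. Apoc4, a minor apolipoprotein, had -0.03, and Apoc2, the activator of lipoprotein lipase, had 0.04. Apoa4, a protein of triglyceride-rich particles, was the apolipoprotein that varied most between mice. Its intensity was 4335, 3283, 1894, 2728 and 3151 in heterozygous replicates 1 to 5. In wildtype replicates 1 to 5 it was 3149, 4501, 1383, 2294 and 2126. The groups overlapped, with the highest value in wildtype replicate 2. The log2 change of Apoa4 was 0.30 (SE 0.28, limma adjusted p 0.717), but -0.22 in a fit that also held the number that opens each sample title (the title-number fit). Wildtype replicates 3 to 5 share a title number, 7, that no heterozygous mouse has. The change in that fit therefore rests on wildtype replicates 1 and 2 against the heterozygous mice, here and below.

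**Figure D2:**
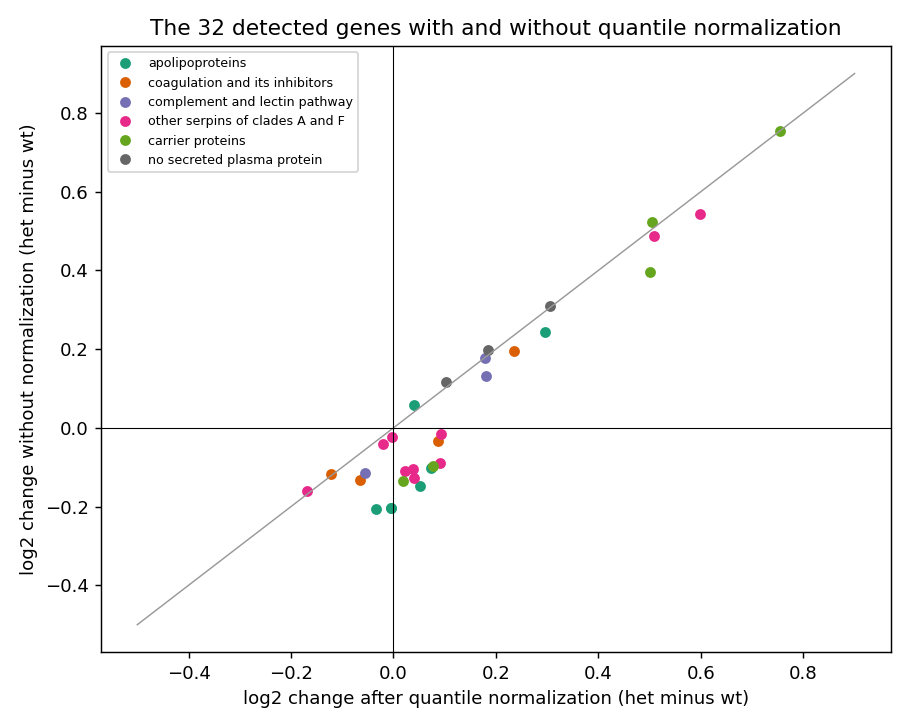
Log2 change (Gyk heterozygous minus wildtype) of each of the 32 detected genes after quantile normalization (x axis) and without normalization (y axis), coloured by role. The grey line marks equal values. The bright apolipoproteins Apoa1, Apoc3 and Apoc4 lie at -0.20 to -0.21 on the y axis, while Mup2, Mup4 and F8a lie on the line.

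Apoa1 and Apoa2 are partners in high-density lipoprotein, and their values across the 8 arrays that did not stand apart had r = 0.207 and rho = 0.267 (two-sided exact permutation p 0.621 and 0.517, adjusted 0.695 and 0.577 over 19 pairs). Without the 2 farthest arrays r was 0.697. With median scaling r was 0.913 (adjusted exact permutation p 0.0305), but 0.371 without the 2 farthest arrays. With cyclic loess r was 0.805 (adjusted exact permutation p 0.0585), and 0.970 without the 2 farthest arrays. On deviations from group means r was 0.327, and 0.957 without them. The size of the relation thus depended on the scaling and on single arrays. After quantile normalization Apoa1 held the same value, 15.54, on several of the 8 arrays.

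Among coagulation genes, F5, the cofactor that speeds thrombin formation, had an intensity of 1719, 2253, 3008, 3155 and 3242 in heterozygous replicates 1 to 5. Wildtype replicates 1 to 5 had 1998, 3294, 2296, 1750 and 2233. The groups overlapped, and the log2 change was 0.23 (SE 0.20, limma adjusted p 0.678). Heterozygous replicate 1, on an array that stood apart, was the lowest of its group. Without both arrays that stood apart the log2 change was 0.32.

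Serpinc1 codes for antithrombin, the main inhibitor of thrombin. Its dim probe had 180.2, 92.7, 105.3, 102.6 and 116.9 in heterozygous and 141.1, 107.5, 131.8, 149.6 and 149.8 in wildtype replicates 1 to 5. Heterozygous replicate 1 was the highest of all, and the other heterozygous values lay in the lower part of the range. The log2 change was -0.12 (SE 0.10, limma adjusted p 0.651). It was -0.22 without the 2 arrays that stood apart and 0.00 in the title-number fit.

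Serpinf2, the plasmin inhibitor, had a log2 change of 0.09 (-0.03 without normalization). Serpina10, which inhibits factor X together with protein Z, had intensities of 5383 ± 376 (SD, n = 5) and 5936 ± 752 (SD, n = 5) and a log2 change of -0.06.

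Of 25 further coagulation and fibrinolysis genes 6 had a probe and 5 were detected, all with log2 changes above 0 after quantile normalization, where 46.5% of all tested probes had one, and 0 called. For Kng1, kininogen, which has one of the bright probes, the change was 0.04, while its deposited mean was lower in heterozygous liver, at 56595 ± 4262 (SD, n = 5) against 62258 ± 4807 (SD, n = 5). The largest was Klkb1, plasma prekallikrein, a protein of the contact pathway, at 6065 ± 641 (SD, n = 5) against 4428 ± 1166 (SD, n = 5). Its log2 change was 0.54 (SE 0.15) with a limma adjusted p of 0.332. Mug1, a broad protease trap, had a log2 change of 0.29 (adjusted p 0.402).

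Complement genes likewise did not pass. C4b, the component shared by the classical and lectin pathways, had by its brightest probe 4166, 3774, 3774, 4705 and 4037 in heterozygous replicates 1 to 5. Wildtype replicates 1 to 5 had 3143, 4211, 3796, 3214 and 4353. Wildtype replicates 1 and 4 were the lowest values and the groups overlapped, with a log2 change of 0.18 (SE 0.12, limma adjusted p 0.582).

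The other C4b probes did not follow the brightest one. The probe scl012268.18_2-S had 611, 29.8, 71.6, 65.8 and 69.8 in heterozygous and 502.5, 80.1, 55, 228.6 and 75.3 in wildtype replicates 1 to 5. A further probe, scl0012268.1_78-S, was high on the same 3 arrays, at 1262.4, 820.3 and 280.7 in heterozygous replicate 1 and wildtype replicates 1 and 4, and at or below 29.6 on the other arrays. The positions of these probes within the C4b transcript are not known here. The log2 change of scl012268.18_2-S was -0.21 (SE 0.48), against 0.18 for the brightest probe. C4b has a close relative in the mouse, and the probes were not told apart from it.

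C6, a component of the pore that complement forms in membranes, had 165.6, 157.7, 133.5, 160.3 and 172.1 in heterozygous replicates 1 to 5. Wildtype replicates 1 to 5 had 103.2, 241.3, 117.8, 94.8 and 111.8. Wildtype replicate 2 was above every heterozygous mouse and the other wildtype mice were below all 5. The log2 change of C6 was 0.18 (SE 0.15, limma adjusted p 0.678), and without wildtype replicate 2 it was 0.33 (adjusted p 0.240). Mbl1, a mannose-binding lectin that starts the lectin pathway, had a log2 change of -0.06 (SE 0.11).

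Of 25 further complement genes 10 had a probe and 8 were detected, with 0 called. After quantile normalization 7 had log2 changes above 0 and 1 below, where 46.5% of all tested probes were above 0. The 2 with the smallest p were Cr1l, a complement regulator on cell surfaces, at 0.25, and C1qb, a chain of C1q made by macrophages and also in the Kupffer cell list, at 0.36. The Cr1l probe was near the detection limit, at 43.3 ± 12.3 (SD, n = 5) against 27.0 ± 28.9 (SD, n = 5), where an array's limit was 22.0 to 41.2. The largest difference in the list was that of C1s1, a protease of the first complement component, at -0.46 (SE 0.36, limma adjusted p 0.651), which is named after its value was seen. All 4 Kupffer cell markers with a probe were detected and had log2 changes above 0, where 46.5% of all tested probes had one. Of these markers C1qa and C1qb are also among the 8 complement genes, so the 2 counts are not separate. The summed intensity of the 4 markers was 1223 to 2452 in heterozygous and 986 to 2667 in wildtype liver, with wildtype replicate 2 the highest. The part of Kupffer cells in the other complement values was not tested.

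**Figure D3:**
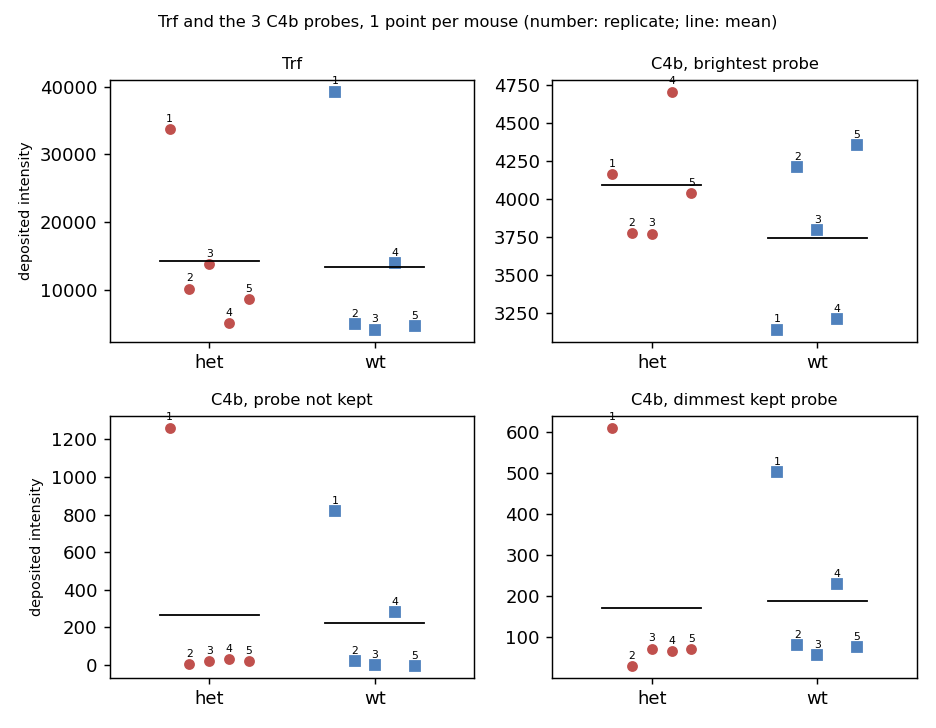
Deposited intensity (y axes, linear, a scale of its own in each panel) of Trf and the 3 C4b probes in each mouse, heterozygous (het, circles) and wildtype (wt, squares), with the replicate number beside each point and the mean as a line. Heterozygous replicate 1 and wildtype replicate 1 are highest for Trf and for both dimmer C4b probes, with wildtype replicate 4 next among wildtype mice.

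Trf, the iron carrier of plasma, varied widely between mice of the same genotype. Its intensity was 33746, 10219, 13802, 5079 and 8682 in heterozygous replicates 1 to 5. In wildtype replicates 1 to 5 it was 39262, 4947, 4160, 13924 and 4642. The highest mouse of each group was replicate 1, on the 2 arrays that stood apart, and the whole range was 9.44-fold. The log2 change was 0.50 with an SE of 0.62 (limma adjusted p 0.800), and 0.61 without these 2 arrays. It was 0.12 without heterozygous replicate 1 alone and 0.98 without wildtype replicate 1 alone. Within groups the SD of the normalized log2 values was 1.15 (percentile 99.2 among tested probes). The 3 highest values, in heterozygous replicate 1 and wildtype replicates 1 and 4, were on the arrays that were also high for the dimmer C4b probes. Heterozygous replicate 3 was nearly as high for Trf as wildtype replicate 4, but low for these C4b probes, at 71.6 and 18.7. The cause was not tested. In the title-number fit, which rests on wildtype replicates 1 and 2, the log2 change of Trf was -0.25.

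The major urinary proteins were 5 genes, each read from its brightest probe, of which Mup5 was detected on 0 arrays. Another Mup4 probe, scl017843.3_24-S, was also detected on 0 arrays, with intensities of -11.2 to 18.2. The family has many near-identical copies, and the probes were not told apart from other copies. By its brightest probe Mup4 had 457, 274.1, 192.5, 240.4 and 443.3 in heterozygous replicates 1 to 5. In wildtype replicates 1 to 5 it had 300.4, 172.9, 232.2, 173.2 and 91.4. Heterozygous replicates 1 and 5 were the highest and wildtype replicate 5 the lowest, and the rest of the groups overlapped. The log2 change of Mup4 was 0.50 (SE 0.22), with an unadjusted limma p of 0.0395 and an adjusted p of 0.390. It was 0.36 without wildtype replicate 5 and 0.33 in the title-number fit.

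Mup2 had 1690.4, 714.3, 434.9, 612.9 and 1137.1 in heterozygous and 841.9, 481.2, 572.4, 496.8 and 134.2 in wildtype replicates 1 to 5. The same mice were at the ends of the range as for Mup4. The log2 change was 0.75 (SE 0.39, limma adjusted p 0.469), and without wildtype replicate 5 it was 0.44. Mup1, one of the brightest probes of the array, was also lowest in that mouse, at 44469 where the other wildtype mice had 59467 to 70814. The summed intensity of the erythroid markers Hba-a1 and Hbb-b1 was highest on that array, at 31945 against 7172 to 14652 on the other 9, and its part in the low Mup values was not tested. Log2 changes of Mup1 and Mup3 were 0.08 and 0.02, but -0.10 and -0.14 without normalization.

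Across the 8 arrays that did not stand apart, Mup2 and Mup4 followed each other with Pearson's r = 0.964 and Spearman's rho = 0.905. The two-sided exact permutation p was 0.000893 for r and 0.00456 for rho, 0.0170 and 0.0867 after Benjamini-Hochberg adjustment over 19 pairs. All these pairs except Apoa1 and Apoa2 were added after the data were seen, and the adjustment does not cover that choice. Without the 2 arrays farthest from the median of Mup2 r was 0.896. Mup1 and Mup2 had r = 0.891 (exact permutation p 0.00506, adjusted 0.0481), but rho = 0.700 (adjusted 0.288) and r = 0.461 without the 2 farthest arrays. In this setting the relation thus rested largely on those arrays. Without the 2 farthest arrays r was 0.739 with cyclic loess, 0.674 on deviations from group means and 0.200 with median scaling. With median scaling r was 0.961 for Mup2 and Mup4 and 0.610 for Mup1 and Mup2. Mup2 and Mup3 had r = 0.367 (-0.02 with median scaling), and Mup3 and Mup4 had r = 0.448 (0.823 without the 2 farthest arrays, 0.0283 with median scaling). The difference between these correlations was not tested. Cross-reaction of a probe with the transcript of another copy was not tested.

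The windows before the start sites of the 3 Mup genes with a RefSeq promoter entry (build GRCm38.p6, all on the minus strand) are shown because the values of Mup2 and Mup4 were correlated across mice. Each window runs 5′ to 3′ and capitals mark TATAA, the core of a TATA box. The windows are anchored on that motif, so its shared place in them is set by the cut. The annotated start lies 20 bases after the motif in Mup2, 4 in Mup3 and 22 in Mup4. Mup2 lies at chr4:60139873-60139971, Mup3 at chr4:62087318-62087416 and Mup4 at chr4:59960686-59960784.
Mup2: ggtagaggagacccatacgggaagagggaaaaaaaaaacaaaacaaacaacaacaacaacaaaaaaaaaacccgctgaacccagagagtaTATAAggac
Mup3: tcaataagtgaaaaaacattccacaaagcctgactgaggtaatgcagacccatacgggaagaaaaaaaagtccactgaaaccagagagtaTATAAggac
Mup4: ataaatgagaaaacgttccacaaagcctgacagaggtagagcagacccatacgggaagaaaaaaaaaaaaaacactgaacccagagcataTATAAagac
TATAA, on either strand, was found in 24.9% of all 32851 promoter windows of 300 bases. In a global alignment Mup3 and Mup4 were 81.4% identical, Mup2 and Mup4 61.8%, and Mup2 and Mup3 58.0%.

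The Serpina1 genes code for alpha-1-antitrypsin, the inhibitor of neutrophil elastase, and lie side by side on chromosome 12. Serpina1a, Serpina1b and Serpina1d varied little between mice. Serpina1a had 15703, 12666, 15786, 14636 and 15485 in heterozygous and 16776, 12768, 13998, 16635 and 15031 in wildtype replicates 1 to 5, a range of 1.32-fold. Serpina1b and Serpina1d ranged over 1.42-fold and 1.41-fold. Their log2 changes were 0.09 for Serpina1a, 0.09 for Serpina1b and 0.04 for Serpina1d, and -0.02, -0.09 and -0.13 without normalization.

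Serpina1e did not follow them. Its intensity was 4765, 8831, 1934, 2838 and 6351 in heterozygous replicates 1 to 5. In wildtype replicates 1 to 5 it was 1624, 20240, 1217, 1574 and 3205. Wildtype replicate 2 had the highest value of all and wildtype replicate 3 the lowest, a range of 16.6-fold within 1 genotype. The mean intensity was higher in wildtype (5572 ± 8235, SD, n = 5) than in heterozygous liver (4944 ± 2766, SD, n = 5), while the log2 change was 0.60 (SE 0.69, limma adjusted p 0.786). Without wildtype replicate 2 it was 1.28 (adjusted p 0.267), and -0.24 in the title-number fit. The SD of Serpina1e within groups, 1.29 on the log2 scale, lay at percentile 99.4 among tested probes.

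Serpina1b and Serpina1d had r = 0.783 across the 8 arrays (rho = 0.782, exact permutation p 0.0230 and 0.0268, adjusted 0.0875 and 0.190). Serpina1a and Serpina1e had r = -0.773 (rho = -0.619, exact permutation p 0.0177 and 0.115, adjusted 0.0875 and 0.364). Neither of these pairs, also added after the data were seen, passed after adjustment over the 19 pairs. Without the 2 farthest arrays r was 0.716 and -0.591. Serpina1b and Serpina1d passed with median scaling (r = 0.948, adjusted exact permutation p 0.0229), cyclic loess (r = 0.906, adjusted 0.0259) and all 10 arrays (r = 0.783, adjusted 0.0341). Serpina1a and Serpina1e passed on deviations from group means (r = -0.918, adjusted exact permutation p 0.0116), and with median scaling their r was 0.0521 without the 2 farthest arrays. The copies are close in sequence, and the probes were not told apart from their relatives.

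The sequence before the start of each Serpina1 gene, from RefSeq (GRCm38.p6, minus strand), is shown because 3 copies were steady between mice and 1 was not. Capitals mark GTTAAT, part of the element that hepatocyte nuclear factor 1 binds. The windows are anchored on that motif and end before the annotated start, at chr12:103863625-103863740 for Serpina1a, chr12:103738200-103738315 for Serpina1b, chr12:103773634-103773749 for Serpina1d and chr12:103956960-103957075 for Serpina1e.
Serpina1a: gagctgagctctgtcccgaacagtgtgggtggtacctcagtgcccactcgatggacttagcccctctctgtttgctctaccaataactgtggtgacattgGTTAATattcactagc
Serpina1b: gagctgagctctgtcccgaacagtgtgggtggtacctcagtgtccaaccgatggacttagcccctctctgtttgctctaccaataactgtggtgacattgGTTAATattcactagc
Serpina1d: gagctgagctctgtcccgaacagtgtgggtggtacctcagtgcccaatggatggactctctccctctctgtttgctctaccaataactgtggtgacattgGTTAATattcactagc
Serpina1e: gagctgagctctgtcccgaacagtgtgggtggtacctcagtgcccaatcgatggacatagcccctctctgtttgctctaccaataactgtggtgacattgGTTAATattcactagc
Over these 116 bases Serpina1e differed from Serpina1a at 2 positions, from Serpina1b at 3 and from Serpina1d at 6. Serpina1b and Serpina1d differed at 7. The motif, on either strand, was found in 7.10% of all promoter windows. The annotated start lies 72 bases after the motif in Serpina1e and 10 to 20 bases after it in the other copies.

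**Figure D4:**
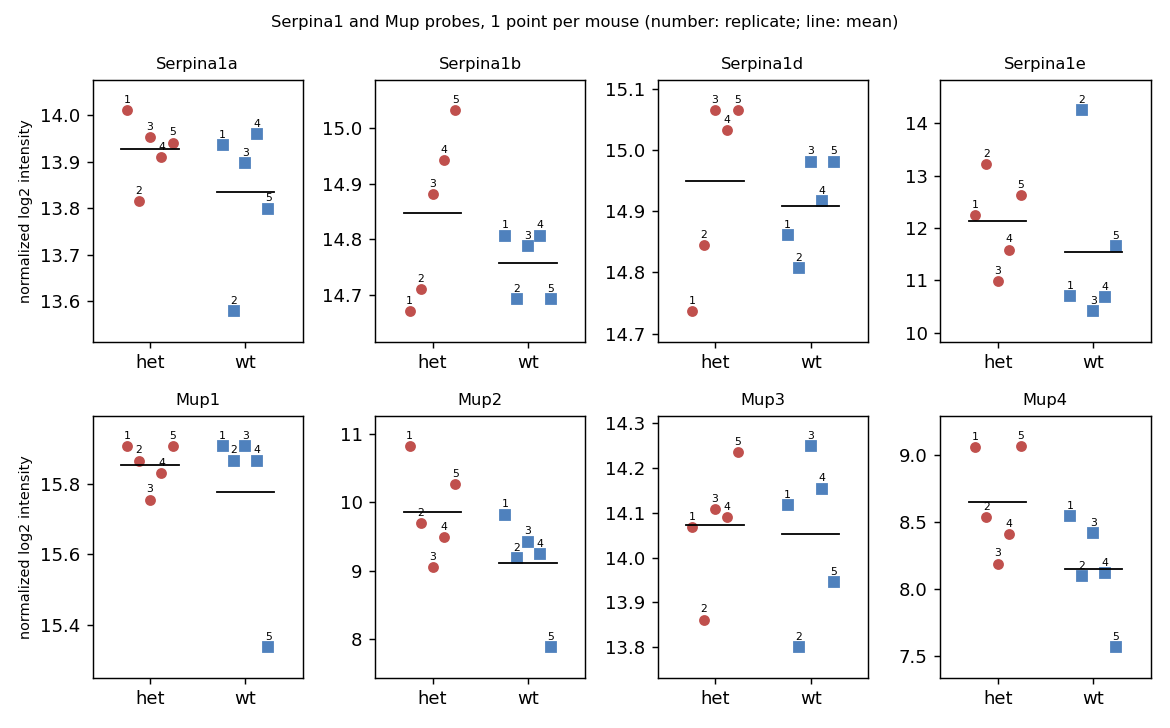
Normalized log2 intensity (y axes, a scale of its own in each panel) of 4 Serpina1 and 4 Mup probes in each mouse, heterozygous (het, circles) and wildtype (wt, squares), with the replicate number beside each point and the mean as a line. Serpina1e spans 3.85 log2 units with wildtype replicate 2 on top, and wildtype replicate 5 is lowest for Mup1, Mup2 and Mup4.

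Some other serpins also varied widely between mice of the same genotype, and others did not. Serpina12, an adipokine also called vaspin, had by its brightest probe 1328, 872.9, 241.6, 444.6 and 719.3 in heterozygous replicates 1 to 5. Wildtype replicates 1 to 5 had 162.9, 1019.8, 247.8, 240.9 and 1044.7. The wildtype mice fell into 2 high and 3 low values, and the groups overlapped. The log2 change was 0.51 (SE 0.50, limma adjusted p 0.737) and -0.01 without the 2 arrays that stood apart. Another Serpina12 probe, scl0068054.1_3-S, was detected on 1 array, with intensities of -29.3 to 45.6.

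Serpina7, the X-linked thyroxine carrier, had 351.4, 424.4, 1100.8, 793.6 and 265.7 in heterozygous and 735.1, 392.5, 803.3, 585.5 and 532.5 in wildtype replicates 1 to 5. The heterozygous mice held both the highest and the lowest values, and the log2 change was -0.17 (SE 0.32). Serpina3g, an inhibitor of cysteine proteases inside cells, had a log2 change of -0.02 with a within-group SD of 0.41. Serpina11 had -0.00 with an SD of 0.49. Serpina3k, also called contrapsin, and Serpinf1, pigment epithelium-derived factor, were steady, with ranges of 1.25-fold and 1.44-fold over the 10 mice.

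**Figure D5:**
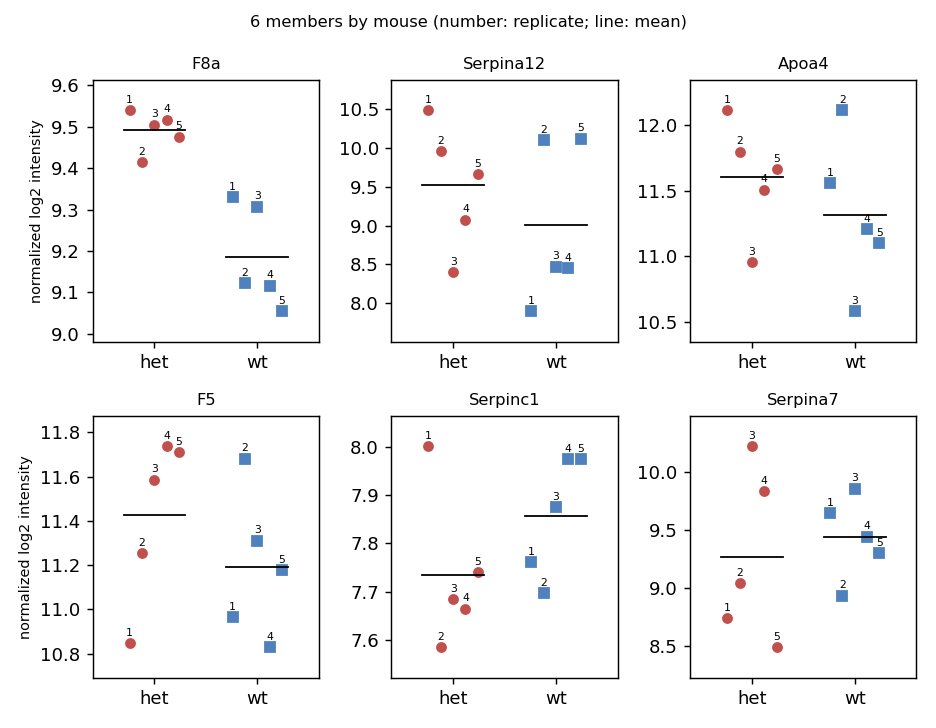
Normalized log2 intensity (y axes, a scale of its own in each panel) of 6 genes in each mouse, heterozygous (het, circles) and wildtype (wt, squares), with the replicate number beside each point and the mean as a line. The 5 heterozygous values of F8a (9.42 to 9.54) lie above the 5 wildtype values (9.05 to 9.33), and the groups overlap in the other 5 panels.

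The gene with the smallest p in the set was F8a, which the rule took up for its symbol. It codes for a partner of huntingtin and is named for its place inside the coagulation factor VIII gene in humans, and it has no known part in coagulation. Like Gyk it lies on the X chromosome. F8a had 659.4, 568.1, 627.7, 624.9 and 629.8 in heterozygous and 575.4, 460.2, 519.3, 441.4 and 429.2 in wildtype replicates 1 to 5. In these deposited values wildtype replicate 1 was just above heterozygous replicate 2, and after normalization the groups did not overlap.

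The log2 change of F8a was 0.31 (SE 0.08, 95% CI 0.14 to 0.47). Its unadjusted limma p was 0.00203 and its adjusted p 0.332. With both arrays that stood apart left out the adjusted p was 0.0643, where 2.13% of all tested probes were called. It was 0.0377 without wildtype replicate 1, where 4.26% of all tested probes were called, and 0.0395 with array weights, where 4.01% were. In the title-number fit the log2 change was 0.26, with an unadjusted limma p of 0.0292 and an adjusted p of 0.909. The title number was 7 in wildtype replicates 3 to 5 alone, and so cannot be told apart from genotype in those mice. Serpinb6a, a clade B serpin that acts inside cells, had a log2 change of 0.18 (SE 0.11), and F11r, a junctional adhesion molecule, 0.10 (SE 0.08).

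Genes that build, receive or switch on these proteins did not pass either. Of 20 genes listed for lipoprotein assembly and uptake 9 were detected, 6 with values above 0 and 3 below, with a median of 0.00 and 0 called. The 2 with the smallest p were Lrp1, a receptor for remnants, at 0.16 and Acat2 at 0.18. Acat2 makes acetoacetyl-CoA for sterol synthesis and is not itself a gene of lipoprotein assembly or uptake. Of 18 transcription factors of hepatocytes 8 were detected, 3 above 0 and 5 below, with a median of -0.06 and 0 called. Rxra, the partner of many nuclear receptors, had 0.20 and Prox1, a homeobox factor, -0.17.

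Over the 32 genes, 9 had a within-group SD above the 90th percentile of all tested probes: Serpina1e, Trf, Serpina12, Mup2, Serpina7, Apoa4, Serpina11, Serpina3g and Mup4. Another 14 lay under the 20th percentile, and 11 of these were among the 150 brightest probes. The value added to every intensity before log2 makes the SD of dim probes smaller, so percentiles of dim and bright probes are not strictly comparable. For most bright probes the SD was smaller after quantile normalization: it was 0.05 after it and 0.14 without it for Apoa2, and 0.06 and 0.11 for Apoc3. For Serpinf2 it was 0.12 and 0.13, and for Serpina3k it was larger after it, at 0.12 against 0.09. For Serpina1e the SD was 1.29 with and without it. The 95% confidence intervals of the change reached from -0.93 to 2.13 for Serpina1e and from -0.86 to 1.86 for Trf.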

How the data were processed

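Liver RNA of 10 mice was measured on Illumina bead arrays. The deposited values are background-subtracted intensities on a linear scale, with values below 0, made with BeadStudio 1.5.1.3 per the submitters' processing notes; normalization is not given in the sources used here. Another 80 columns of a scanner table could not be tied to samples and were not used.

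Adding 95.2 to every intensity set the lowest to 16, and log2 values were then normalized by quantiles. For dim probes the added value makes log2 changes and SDs smaller than the deposited ratios. Deposited values of Serpinc1 ranged over 1.94-fold and those of Mup4 over 5.0-fold, while their normalized log2 values spanned 0.42 and 1.50. Noise was the root mean square of an array's values below 0. Probes above 1.64 times the noise on at least 5 of 10 arrays were kept (10225 of 24048). Changes were fitted with limma 3.58.1 in R 4.3.3 (lmFit, eBayes), two-sided, with Benjamini-Hochberg adjustment over all kept probes and a threshold of 0.05. Probe identifiers were read as gene numbers and named through RefSeq (GRCm38.p6): 93.3% of 9523 numbers matched, against 39.0% of shifted numbers, and 8884 probes were named. Promoter sequences are from RefSeq and cover 39 of the 48 genes.

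The genes followed through all alternatives were 21 chosen by the smallest p in each direction and in each role, and 3 chosen after their values were seen. Values by array are printed for part of them, and the others are given by means or changes. The members and lists were chosen with earlier results of these data known. The fit was tested on simulated data. The leading number of the sample titles was tried as a block, since the labels do not say what it marks. With that block the change rests on wildtype replicates 1 and 2, since the other wildtype mice share a number with no heterozygous mouse. A gene of the set is counted but not reported by name here.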

Additional observations from a re-analysis of the deposited data

Results flagged for a closer look

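Among 64 groups of 5 values, 4 held a value whose gap to the next, divided by the group's range, was above Dixon's critical value of 0.71. Chance alone gives such a gap in about 5% of groups. Mup1 was lowest in wildtype replicate 5, at a normalized log2 intensity of 15.34 where the next value was 15.86. Apoa1 and Apoa2 were highest in the same mouse, at 15.63 and 15.91. Apoc3 was highest in wildtype replicate 1, at 15.37. These probes are among the brightest of the array, where quantile normalization assigns a few shared values. The value 15.91 was held by Mup1 in wildtype replicate 1 and by Apoa2 in wildtype replicate 5. The gaps were read on such normalized values. In deposited values the highest and next wildtype values were 55556 and 51810 for Apoa1, 65999 and 62690 for Apoa2, and 47441 and 45408 for Apoc3. For Mup1 the lowest and next were 44469 and 59467. The cause was not tested.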

How the results depend on the processing

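The count of genes past the adjusted threshold was 0 in all settings except 2, array weights and the fit without wildtype replicate 1, each with 1 (F8a), a range of 0 to 1 over fits leaving out 1 mouse. At an unadjusted p under 0.05 there were 4 genes without normalization, 4 without the filter and 1 with the title number as a replicate block, against 2, and 1 to 3 when leaving out 1 mouse. The median change was -0.01 with median scaling and -0.04 without normalization, and 0.06 to 0.10 when leaving out 1 mouse. The correlation of Apoa1 and Apoa2 was 0.91 with median scaling and 0.81 with cyclic loess. Of 529 values of 24 named genes, 487 kept direction and side of the threshold, 2 passed it and 40, from 17 genes, changed sign. With median scaling these were Apoe (-0.0771), Serpina1b (-0.0636) and Serpina11 (0.00198), and with cyclic loess Serpina11 (0.00349). Without normalization they were Apoe (-0.10), Serpina1b (-0.0883) and Serpina1a (-0.0150). With the replicate block they were Apoa1 (0.0245), Apoa4 (-0.22), Serpina10 (0.00833), Serpina11 (0.29), Serpina1e (-0.24), Serpina3g (0.12), Serpinc1 (0.000576) and Trf (-0.25). With array weights Apoc4 was 0.0105. C4b was -0.0166 as the mean of its probes and -0.21 by its other kept probe, an alternative added after seeing the data. Without both arrays that stood apart Apoc3 was 0.00114, Serpina12 -0.0118 and Serpina7 0.0136. Leaving out 1 mouse moved Apoa1 from -0.0319 to 0.0201, Apoc3 from -0.0232 to 0.0220, Apoc4 from -0.0718 to 0.00372, Mbl1 from -0.11 to 0.0210, Serpina11 from -0.24 to 0.13, Serpina3g from -0.17 to 0.13 and Serpina7 from -0.41 to 0.0263. Correlations of neighbouring genes, also added after seeing the data, changed sign with median scaling for Apoa1 and Apoa4 (-0.32), Apoc3 and Apoa4 (-0.0584), Apoc2 and Apoe (0.25) and Mup2 and Mup3 (-0.0162), and with cyclic loess for Apoa1 and Apoa4 (-0.45) and Apoc3 and Apoa4 (-0.10). Trf ranged from 0.12 to 0.98 when leaving out 1 mouse. The causes were not tested. A fit blocked by chip was not run because no label ties chip positions to samples. The number of arrays and, for dim probes such as Cr1l, signal near background limit the precision.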
